A study of Mus musculus with 6 samples.

Results

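The genes described here are 36 genes of sterol and fatty acid synthesis and of its control, measured in mouse bone marrow after erythropoietin. They were chosen by role, as enzymes, regulators and transporters of the pathway, and not by how they behaved on these arrays. Each was read from the brightest array probe whose accession maps to it in RefSeq. All 36 passed the filter on dim probes, out of 14853 genes tested, and each probe used was well above background on all 6 arrays.

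The samples were bone marrow cells from the femurs of male ISAM mice, aged 10 weeks and of mixed strain, with the genotype ISAM (Epo-/-::3.3K-Epo3'-Tg458). All groups share this genotype, in which the endogenous Epo gene is absent and an Epo transgene stands in for it, in an erythropoietin-deficient anemia model. The treated group was 3 samples taken 6 h after an intraperitoneal dose of 3000 U/kg recombinant human erythropoietin (rHuEPO). The control arm, as the study defined it, was 2 samples taken 6 h after phosphate-buffered saline (PBS) and 1 untreated sample. No wild-type marrow was analysed here. The labels number replicates without saying that each is a separate animal, so the p-values below reflect sample-to-sample spread, which may be technical, and the number of arrays limits their precision. Marrow is a mixture, and fewer cells of a type cannot be told apart from less RNA per cell.

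Cholesterol is built from acetyl-CoA through mevalonate, farnesyl diphosphate and squalene, and the sterol ring is then trimmed to cholesterol. The enzymes of this route are controlled together by SREBP transcription factors. When membranes hold little sterol, SCAP carries SREBP from the endoplasmic reticulum to be cleaved, and the INSIG proteins hold it back when sterol is plentiful. Oxidised sterols activate the liver X receptors (LXR), which turn on cholesterol export. Dividing marrow cells need sterol and fatty acids for new membrane, while maturing red cells lose the organelles that make them.

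RefSeq's GRCm38.p6 promoter table matched 28 of the 36 genes (not Fdps, Fdft1, Sqle, Stard4, Npc1, Abcg1, Scd1 and Scd2). The 250 bases before the start of each gene were searched there for the letters of 4 motifs. The letters searched on both strands were TCACNCCAC for the sterol response element bound by SREBP, ATTGG for the CCAAT box bound by NF-Y, GGGCGG for the Sp1 box and CACGTG for the E-box, with a gene counted when any of its windows held them. The sterol response letters were in 1 of the 28 (3.57%), Hmgcs1, against 1.22% of 27025 genes in the table. The CCAAT box was in 21 of 28 (75%) against 37.5%, the Sp1 box in 23 of 28 (82.1%) against 35.4%, and the E-box in 6 of 28 (21.4%) against 6.86%. Among the 15 mevalonate and sterol enzymes with an entry, 14 held a CCAAT box and 14 an Sp1 box. A match is a description of letters, not a bound site. The shares set beside these counts are over all genes in the promoter table, not over the genes tested on the arrays. Whether the higher shares are particular to this list was not tested. The windows below are those of Hmgcs1, the only match to the sterol response letters, and of Lss and Idi1, which were picked after their values were seen. Capitals mark every match to the 4 motifs on either strand, none of which overlap in these windows.
Hmgcs1, chr13:119690101-119690350, plus strand: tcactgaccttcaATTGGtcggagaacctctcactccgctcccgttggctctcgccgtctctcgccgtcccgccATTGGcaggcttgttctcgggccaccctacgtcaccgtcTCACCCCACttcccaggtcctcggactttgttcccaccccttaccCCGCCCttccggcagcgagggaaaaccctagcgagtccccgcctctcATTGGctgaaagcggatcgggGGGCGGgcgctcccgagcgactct
Lss, chr10:76531355-76531604, plus strand: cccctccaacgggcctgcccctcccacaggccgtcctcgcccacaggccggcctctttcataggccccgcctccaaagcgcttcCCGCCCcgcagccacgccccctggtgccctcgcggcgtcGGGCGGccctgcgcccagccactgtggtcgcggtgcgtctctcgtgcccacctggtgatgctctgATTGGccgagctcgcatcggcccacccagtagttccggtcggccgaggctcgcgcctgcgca
Idi1, chr13:8885356-8885605, plus strand: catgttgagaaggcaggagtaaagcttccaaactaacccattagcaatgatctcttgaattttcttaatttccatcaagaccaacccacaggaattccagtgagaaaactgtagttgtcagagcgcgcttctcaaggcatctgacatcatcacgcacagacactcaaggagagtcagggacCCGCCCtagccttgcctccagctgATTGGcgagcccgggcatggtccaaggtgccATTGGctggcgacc
In Hmgcs1 the sterol response letters begin 137 bases before the start, and the window also holds 3 CCAAT boxes and 2 Sp1 boxes. Lss has 1 CCAAT box and 2 Sp1 boxes, and Idi1 has 2 CCAAT boxes and 1 Sp1 box.

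The signal at the 75th percentile of gene spots lay between 221 and 264. The share of gene spots well above background was 46.2% to 46.6% on rHuEPO arrays and 48.6% to 50.5% on control arrays, so it was separated by arm. The median of negative control spots was 4.73 to 5.51 on rHuEPO arrays and 3.74 to 4.03 on control arrays, also apart, and the part of these differences in the results was not tested. Untreated marrow and rHuEPO replicate 1 shared slide 1, and the other 4 arrays shared slide 2, each slide scanned in 1 session. Defining markers of marrow were present, with 10 of 10 erythroblast and 10 of 10 neutrophil genes tested, while the adipocyte markers Plin1, Cidec and Lep were too dim.

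The comparison asked whether 6 h of rHuEPO changed the lipid synthesis genes in marrow, and none of the 36 passed the test. Levels below are log2 signals relative to the array's 75th percentile, and a change is the log2 difference of rHuEPO minus control with its standard error (SE) from limma on 3 against 3 arrays. After Benjamini-Hochberg adjustment limma called 0 of 36, where it called 0.0673% of all genes tested (10 of 14853). At an unadjusted p under 0.05 it listed 2 of the 36 (5.56%), Nr1h3 and Lss, against 4.96% of all genes. With slide as a block it also called 0 of the 36 against 0.0741% of all genes, and at an unadjusted p under 0.05 listed 3 (8.33%), adding Sqle, against 11.3%. Changes split evenly, with 18 above 0 and 18 below, and their median was -0.00065 against -0.015 over all genes.

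The 95% intervals of the changes, not adjusted for the number of genes, lay within a 2-fold difference either way for 29 of the 36. The same held for 11287 of all 14853 genes tested. The exceptions among the 36 were Nr1h3, whose interval ran from 0.43 to 1.81, and Idi1, Fdps, Tm7sf2, Stard4, Fasn and Scd1. For these 7 a 2-fold difference could not be resolved from none, or, for Nr1h3, lay inside an interval above 0. The arms were apart, with all rHuEPO arrays the higher, for 3 genes (8.33%), Sqle, Lss and Nr1h3, against 5.01% of all genes. The opposite held for 0 of the 36 against 5.39% of all genes. This count of separated genes moved with single arrays. Without PBS replicate 1 it was 6 upward and 2 downward, against 10.4% and 11.8% of all genes. Without rHuEPO replicate 1 it was 5 and 4, against 15% and 12.6%. Without PBS replicate 2 it was 3 and 3, against 9.56% and 10.5%, and without the untreated array 3 and 2, against 7.53% and 10.8%.

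**Figure D1:**
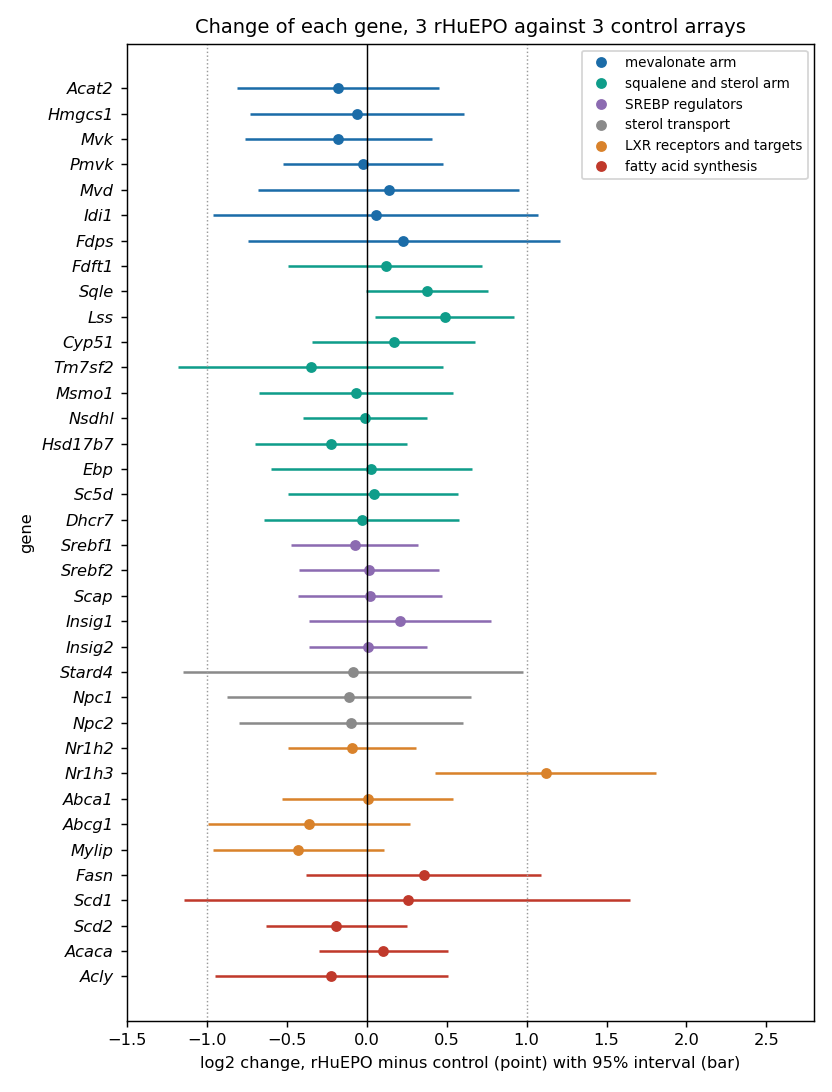
Log2 change of each of the 36 genes, rHuEPO minus control (point), with its unadjusted 95% interval from limma (bar), 3 against 3 arrays, coloured by role. Dotted lines mark a 2-fold difference either way, and the intervals of Lss and Nr1h3 lie wholly above 0.

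The mevalonate arm carries acetyl-CoA to farnesyl diphosphate, and its 7 genes showed no common shift with rHuEPO, with 3 changes above 0, 4 below and a median of -0.023. Hmgcs1, the synthase that makes HMG-CoA, read 1.69 in untreated marrow, 2.49 and 1.62 after PBS, and 1.64, 1.78 and 2.20 after rHuEPO, so the arms overlapped (change -0.062 ± 0.29). Mvk, mevalonate kinase, had the smallest p of the arm. Its levels were -1.52 in untreated marrow, -0.65 and -1.06 after PBS, and -1.12, -1.42 and -1.21 after rHuEPO. All 3 rHuEPO values of Mvk fell between the untreated and PBS values, and its change was -0.18 ± 0.25 (limma adjusted p = 1.00).

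Idi1, the isomerase of the 5-carbon isoprenoid units, read 0.52 in untreated marrow, 1.95 and 1.62 after PBS, and 0.76, 1.74 and 1.77 after rHuEPO. The low values were the untreated array and rHuEPO replicate 1, which are the slide 1 arrays. Fdps, which joins those units into farnesyl diphosphate, was likewise lowest on the slide 1 arrays, with 1.78 in untreated marrow, 3.31 and 2.5 after PBS, and 2.26, 2.84 and 3.19 after rHuEPO. The changes were 0.059 ± 0.43 for Idi1 and 0.23 ± 0.41 for Fdps. Mvd, the decarboxylase before Idi1, was highest on PBS replicate 1, at 2.36 against 1.24 and 1.01 on the other controls, and read 1.67, 1.58 and 1.78 after rHuEPO (change 0.14 ± 0.35). Pmvk, phosphomevalonate kinase, changed by -0.023 ± 0.21 and Acat2, an acetoacetyl-CoA thiolase, by -0.18 ± 0.27, without passing.

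From squalene onward, 2 of 11 genes, Sqle and Lss, had their arms apart with rHuEPO the higher, where 5.01% of all genes did, and none of the 11 passed. Sqle, squalene epoxidase, a rate-limiting oxygenase of the route, read 0.84 in untreated marrow, 0.90 and 0.97 after PBS, and 1.41, 1.17 and 1.27 after rHuEPO. The 3 controls were tight (SD 0.061, n = 3) and all lay below the rHuEPO arrays (SD 0.12, n = 3). The change was 0.38 ± 0.16, a 1.30-fold difference, with an unadjusted p of 0.0511 and an adjusted p of 1.00 by limma. Within slide 1 it was 0.57 and within slide 2 it was 0.28.

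Lss, lanosterol synthase, which closes the epoxide into the first sterol, read -2.46 in untreated marrow, -2.37 and -2.76 after PBS, and -2.04, -2.17 and -1.92 after rHuEPO. The change was 0.49 ± 0.18, a 1.4-fold difference (unadjusted p = 0.0320, limma adjusted p = 0.926, and 0.368 with slide as a block). It was 0.42 within slide 1 and 0.52 within slide 2, and a dimmer tested probe of Lss gave 0.36. With normexp background correction the change of Lss was -0.24 ± 0.39. That setting also took median spot signals and an offset of 50, and which of these turned the sign was not tested.

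The other sterol enzymes overlapped between arms. Fdft1, squalene synthase, read 2.13 on rHuEPO replicate 1 and 1.44 and 1.28 on the other rHuEPO arrays, against 1.59, 1.63 and 1.28 on controls (change 0.12 ± 0.26). Cyp51, the lanosterol demethylase, was at 0.17 ± 0.22, and Tm7sf2, a sterol reductase, at -0.35 ± 0.35. Msmo1, Nsdhl and Hsd17b7, which remove methyl groups from the ring, were at -0.065 ± 0.26, -0.0094 ± 0.17 and -0.22 ± 0.20. Ebp, Sc5d and Dhcr7, which act on the last double bonds, were at 0.029 ± 0.27, 0.045 ± 0.23 and -0.029 ± 0.26. The array that stood out was again PBS replicate 1, for example 1.95 for Tm7sf2 against 0.43 to 1.22 elsewhere and 4.28 for Msmo1 against 3.32 to 3.81.

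**Figure D2:**
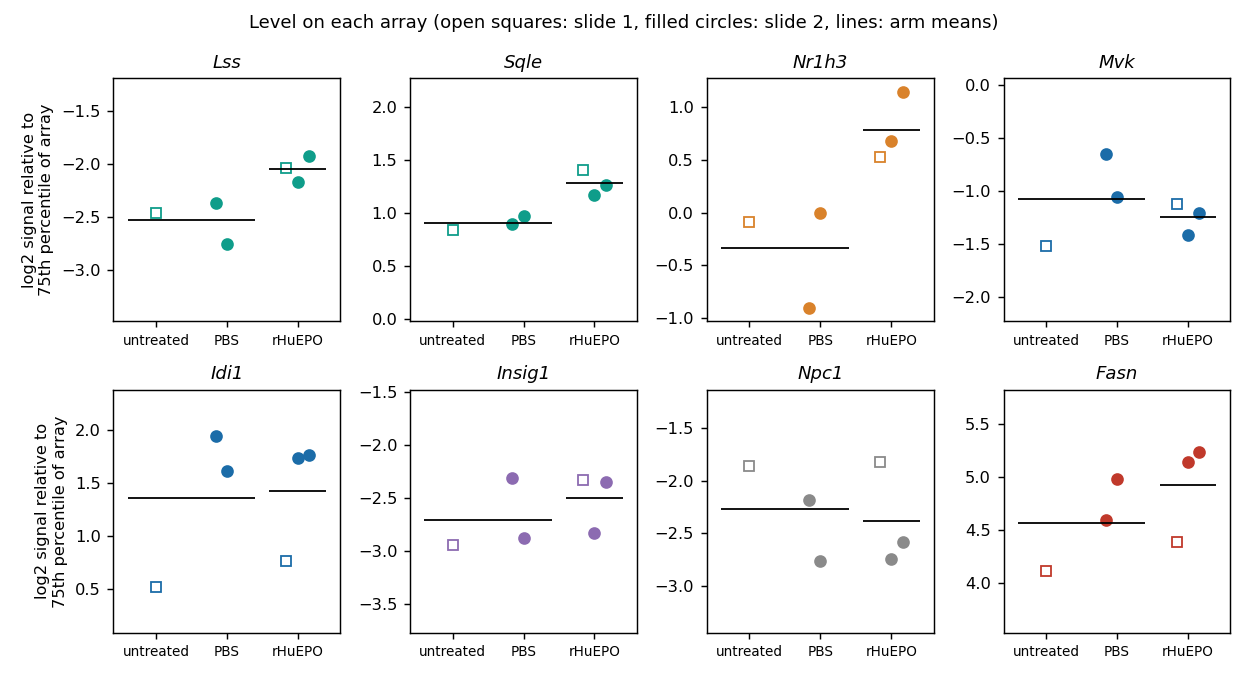
Levels of 8 genes on each array, as log2 signal relative to the 75th percentile of the array, with lines at the means of the control arm (untreated and PBS) and the rHuEPO arm. Each panel spans the same log2 range. The rHuEPO points of Lss, Sqle and Nr1h3 lie above all controls, while Idi1 and Fasn are lowest on the slide 1 arrays (open squares).

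The 5 sensors and factors that set the pathway's rate had changes of at most 0.21 in size, and none passed. Srebf1, whose product favours fatty acid genes, read 4.42 in untreated marrow, 4.72 and 4.45 after PBS, and 4.44, 4.43 and 4.51 after rHuEPO (change -0.074 ± 0.17). Srebf2, whose product favours sterol genes, was at 0.016 ± 0.19, Scap at 0.020 ± 0.19 and Insig2 at 0.011 ± 0.16, each with an interval inside 2-fold. Insig1, an SREBP target as well as its brake, had the smallest p of the 5. It read -2.94 in untreated marrow, -2.31 and -2.88 after PBS, and -2.33, -2.83 and -2.35 after rHuEPO, with values near both ends in either arm (change 0.21 ± 0.24, limma adjusted p = 1.00). A second tested probe of Insig1 also gave 0.21, while normexp gave -0.36.

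Sterol transport genes spread widely between arrays rather than between arms. Stard4, a soluble sterol carrier, read 0.18 in untreated marrow, 2.01 and 1.08 after PBS, and 0.56, 1.25 and 1.21 after rHuEPO, a range of 1.83 (change -0.084 ± 0.45). Its 3 tested probes disagreed, with changes of -0.084, 0.51 and 0.21. The lysosomal cholesterol exporters Npc1 and Npc2 were at -0.11 ± 0.33 and -0.098 ± 0.30. Npc1 read -1.86 in untreated marrow, -2.18 and -2.76 after PBS, and -1.82, -2.74 and -2.58 after rHuEPO, high on slide 1 where Npc2 was low, at 3.83 and 3.82 against 4.03 to 4.83 on slide 2.

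The LXR genes held the largest change of the list. Nr1h3, which encodes LXR alpha, a receptor abundant in macrophages, read -0.090 in untreated marrow, -0.90 and -0.0074 after PBS, and 0.53, 0.68 and 1.14 after rHuEPO. Every rHuEPO value lay above every control, with PBS replicate 1 the lowest. The change was 1.12 ± 0.29, a 2.17-fold difference, with an unadjusted p of 0.00632 and a limma adjusted p of 0.671 (0.310 with slide as a block). It was 0.62 within slide 1 and 1.37 within slide 2, and 0.83 without PBS replicate 1. Over the alternatives it ran from 0.79 to 1.28, without passing.

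Of 9 macrophage and monocyte markers tested, 7 had changes above 0, with a median of 0.36, where 47.3% of all genes lay above 0, and none passed. Arms were apart upward for 2 and downward for 1, against 5.01% and 5.39% of all genes. The largest change was that of Siglec1, at 0.75 ± 0.35, and C1qa, a complement gene of tissue macrophages, was at 0.52 ± 0.23. The only markers below 0 were Adgre1, the F4/80 antigen, at -0.18 ± 0.21, and Timd4, a receptor for dying cells. Timd4 was at -0.54 ± 0.21 (unadjusted p = 0.0339 by limma). Erythroblast markers had 8 of 10 changes above 0, with a median of 0.32, and none passed. The one with the smallest p was Tfrc, the transferrin receptor, at 0.97 ± 0.19 (unadjusted p = 0.00138, limma adjusted p = 0.427). The summed linear signal of the macrophage markers, in multiples of the 75th percentile, was 55.4 to 63.1 on control arrays and 59.7 to 70.2 on rHuEPO arrays. For the erythroblast markers it was 2081 to 2377 and 2070 to 2435, so the arms overlapped. The brightest of them, Hbb-bt and Hba-a1, were at 0.015 ± 0.16 and -0.015 ± 0.17. Cd68 had no matched probe. The part of these cells in the value of Nr1h3 was not tested. Its partner receptor Nr1h2 (LXR beta), present in most cells, was at -0.089 ± 0.17.

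None of the 3 LXR targets passed, and their arms overlapped. Abca1, a cholesterol exporter, was at 0.0081 ± 0.23 and Abcg1, which exports sterol to lipoprotein particles, at -0.36 ± 0.27. Mylip, a ubiquitin ligase that lowers lipoprotein receptors, read 2.70 in untreated marrow, 1.99 and 2.62 after PBS, and 2.12, 1.92 and 1.99 after rHuEPO. Only PBS replicate 1 kept the arms of Mylip from separating downward, and the change was -0.43 ± 0.23 (unadjusted p = 0.104, limma adjusted p = 1.00), or 0.097 with normexp. Mylip differed by -0.58 within slide 1 and -0.35 within slide 2.

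Fatty acid synthesis gave no call. Fasn, the fatty acid synthase, read 4.11 in untreated marrow, 4.59 and 4.98 after PBS, and 4.38, 5.14 and 5.24 after rHuEPO. The slide 1 arrays were the lowest of both arms, and within each slide rHuEPO lay higher, by 0.27 in slide 1 and 0.40 in slide 2. Its change was 0.36 ± 0.31 (unadjusted p = 0.290, and 0.0549 with slide as a block), and a second probe gave 0.38. It was 0.13 ± 0.32 without the untreated array, 0.084 ± 0.25 with the replicate block and 0.87 ± 0.37 with normexp, and leaving out an array in turn gave 0.13 to 0.63. Of these fits the lowest value came without the untreated array and the highest without rHuEPO replicate 1, with 0.20 without rHuEPO replicate 3 and 0.57 without PBS replicate 2. Acaca, the carboxylase that feeds Fasn, was at 0.10 ± 0.17, and Acly, which splits citrate into acetyl-CoA, at -0.22 ± 0.31.

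The 2 desaturases measured differed in spread. Scd1, the stearoyl-CoA desaturase of fat and liver, read 1.08 in untreated marrow, -1.43 and 0.53 after PBS, and 0.51, 0.076 and 0.37 after rHuEPO. Its range of 2.51 was the widest of the 36, and PBS replicate 1 made it so. The summed adipocyte marker signal was also lowest on PBS replicate 1, at 16 against 18.3 to 33.1 elsewhere, and its part was not tested. Scd2 stayed between 2.42 and 2.99. The changes were 0.26 ± 0.59 for Scd1 and -0.19 ± 0.19 for Scd2.

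**Figure D3:**
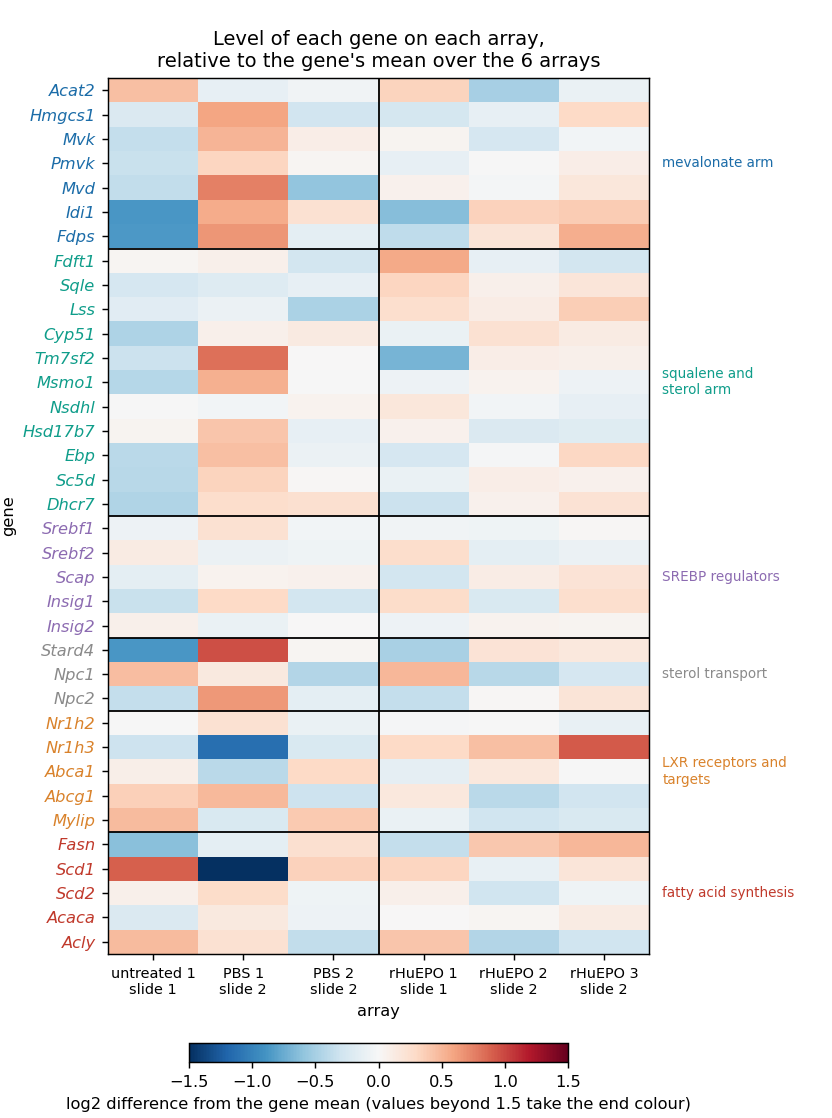
Log2 level of each of the 36 genes on each array minus the gene's own mean over the 6 arrays, red above and blue below, grouped by role with the control arrays to the left of the vertical line. Sterol enzymes are mostly blue on the untreated array and red on PBS replicate 1, and Scd1 on PBS replicate 1 lies beyond the end of the colour scale.

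For the 18 mevalonate and sterol enzymes, the arrays furthest apart were 2 controls. Relative to each gene's mean over all arrays, their median was -0.34 on the untreated array, 0.38 and -0.023 on the PBS arrays, and -0.089, 0.025 and 0.11 on the rHuEPO arrays. Over all genes tested the same medians ran only from -0.071 to 0.073. PBS replicate 1 was the highest array for 12 of the 18 enzymes (66.7%), against 25.7% of all genes, and the untreated array the lowest for 10 (55.6%), against 27.5%. Both slide 1 arrays lay below all slide 2 arrays for 9 of 18 (50%), against 28.2% of all genes.

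The direction of the differences was not the same in both slides, though no interaction with slide passed the test. In slide 1, 15 of the 18 enzymes were higher on the rHuEPO array than on the untreated array, with a median difference of 0.28, where 50.7% of all genes were higher. In slide 2, 4 of the 18 were higher on rHuEPO than on PBS, with a median of -0.091, where 46.9% of all genes were higher. Signs were opposite between slides for 11 of the 18 (61.1%), against 38.2% of all genes. Slide 1 holds 1 array per arm, with untreated marrow as its control, so slide and kind of control cannot be told apart here. An interaction of slide and rHuEPO in limma called 0 of the 36 and 0.00% of all genes (0 of 14853), and at an unadjusted p under 0.05 listed 0 of the 36 against 4% of all genes.

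**Figure D4:**
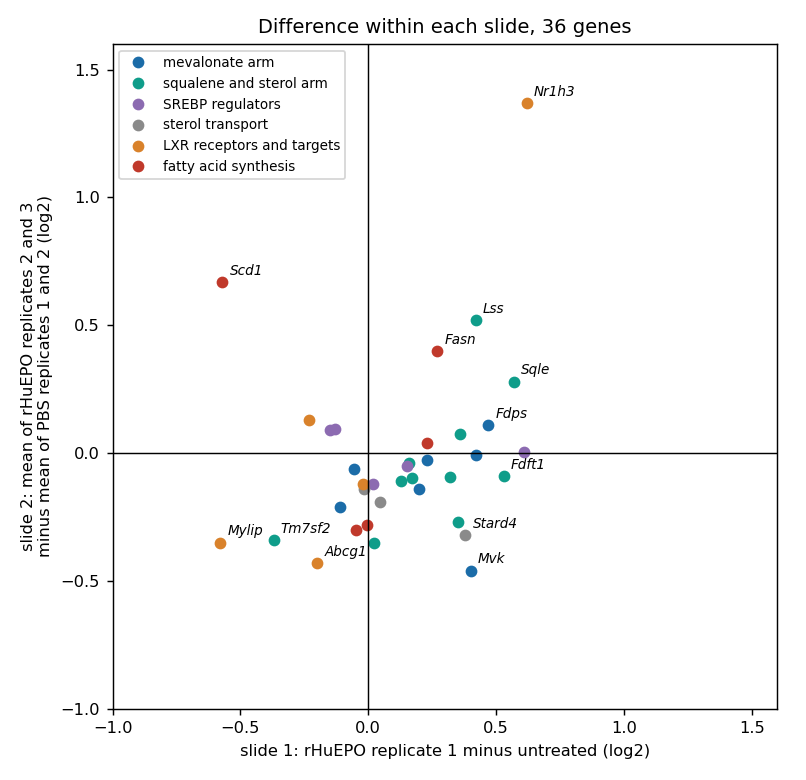
Log2 difference of rHuEPO minus control within slide 1 (horizontal, 1 array against 1) and within slide 2 (vertical, 2 arrays against 2) for the 36 genes, coloured by role. Nr1h3, Lss, Sqle and Fasn lie above 0 on both axes, while many sterol enzymes lie right of 0 and below it.

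Against PBS alone the 7 mevalonate genes all had differences below 0, with a median of -0.18. The sterol arm had 8 of 11 below 0, with a median of -0.15. Over all genes 8904 of 14853 were below 0, and the median was -0.059. PBS replicate 1 was the highest of the 6 arrays for 6 of the 7 and for 6 of the 11, against 25.7% of all genes. None of the 36 passed (limma adjusted p = 0.999 at the smallest), against 0.0202% of all genes, and 1 of 36 (2.78%) was listed at an unadjusted p under 0.05, against 3.98%. This was Nr1h3, at 1.24 ± 0.33.

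Untreated marrow was set against the same PBS arrays, so this contrast and the previous one share their control. Of the 18, 15 had a difference of untreated minus PBS below 0 (83.3%), with a median of -0.54, where 59.2% of all genes were below 0 and the median was -0.11. The untreated array lay below both PBS arrays for 11 of 18 (61.1%), against 45.9% of all genes. The differences with the smallest p were -1.37 ± 0.48 for Stard4 (unadjusted p = 0.0255) and -1.26 ± 0.48 for Idi1 (unadjusted p = 0.0345), both with a limma adjusted p of 0.676. Fdps stood at -1.12 ± 0.49, and Scd1 in the other direction at 1.53 ± 0.72. Limma called 0 of the 36 and 0.00% of all genes, and listed 2 of 36 (5.56%) at an unadjusted p under 0.05, against 5.41%.

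The untreated array shares no slide with the PBS arrays. With slide as a block, the slide difference is taken from the rHuEPO arrays. The blocked difference is then the interaction of slide and rHuEPO with its sign turned, and not a separate result. By this measure Idi1 stood at -0.26 and Stard4 at -0.70. The median of the 18 enzymes was -0.29, against -0.020 over all genes, and 16 of them were below 0. These were not all the enzymes below 0 without the block. Tm7sf2 went from -0.74 to 0.034, Acat2 from 0.53 to -0.10 and Fdft1 from 0.14 to -0.62. Cell type markers also differed among the controls. Summed B lineage signal was 33.9 on PBS replicate 1, against 108 on the untreated array and 152 on PBS replicate 2. Stromal, bone and endothelial markers summed to 27.3 on PBS replicate 1, 49.3 on PBS replicate 2 and 81.4 on the untreated array. Neutrophil markers ran the other way, at 2452, 1899 and 1866. Their part in the sterol gene levels was not tested.

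Beyond the 36, 56 further genes of the pathway were listed by role, and 48 of these could be tested, since 6 were dim and 2 lacked a matched probe. None passed in either direction. Of the changes 32 lay above 0 and 16 below, where 47.3% of all genes lay above 0. The median was 0.050, against -0.015 over all genes. Against PBS alone 22 lay above 0 and 26 below, with a median of -0.022, where 5949 of 14853 genes lay above 0 and the median was -0.059. Arms were apart upward for 5 (10.4%) and downward for 0, against 5.01% and 5.39% of all genes. The genes named from each list are among those with its smallest p.

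Among 9 genes of the isoprenoid branches, which use farnesyl diphosphate for dolichol, ubiquinone and prenylated proteins, 3 had their arms apart upward, where 5.01% of all genes did. Nus1, a subunit of the enzyme that makes the dolichol chain, read 0.92 in untreated marrow, 1.24 and 1.05 after PBS, and 1.41, 1.56 and 1.68 after rHuEPO (change 0.48 ± 0.18, limma adjusted p = 0.908). Pdss1, which makes the tail of ubiquinone, was at 0.38 ± 0.17. Of 7 genes of SREBP processing and sterol-regulated degradation, 6 lay above 0, where 47.3% of all genes did. Among the 6 was Erlin2 (0.18 ± 0.18), a scaffold of degradation at the endoplasmic reticulum. Against PBS alone 4 of the 7 lay above 0, beside 5949 of 14853 genes.

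Of 18 genes of fatty acid supply, elongation and esterification, 10 lay above 0, with Agpat3, an acyltransferase of phospholipid synthesis, at 0.33 ± 0.26 and Hsd17b12, of the elongation cycle, at 0.21 ± 0.18. Of 14 genes of sterol uptake, esterification and transfer, 11 lay above 0, where 47.3% of all genes did. Against PBS alone 4 of 14 lay above 0, beside 5949 of 14853 genes, and within slide 2 it was 7 of 14, beside 46.9%. Tmem97, the sigma-2 receptor and a binding partner of Npc1, read 1.27 in untreated marrow, 1.80 and 1.64 after PBS, and 1.97, 2.11 and 2.08 after rHuEPO. All rHuEPO values of Tmem97 exceeded the controls (change 0.48 ± 0.19, unadjusted p = 0.0405, limma adjusted p = 0.965). Lpcat3, a phospholipid acyltransferase and LXR target, was at -0.28 ± 0.18.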

How the data were processed

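Cy3-labelled total RNA was hybridised to Agilent arrays of 1 colour, per the labels' protocols. Spot intensity is on a linear scale and its processed signal is background-subtracted, per the file headers, which name Feature Extraction 10.7.3.1. The authors also deposited a table of log2 values, whose scaling the labels do not state. Against the scanner values it equalled the log2 processed signal, put at the 75th percentile and then centred by probe medians (slopes 0.9988 to 1.0007), so its scale, centring and direction are settled. By column, its medians came to -0.103 (untreated), -0.0569 and -0.0976 (PBS), and 0.117, 0.0111 and 0.0867 (rHuEPO).

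Levels are log2 processed signals less the 75th percentile of gene spots on that array. Control spots and outlier spots were left out, spots of a probe were averaged, and 17 of 41174 probes lacking a value were dropped. A probe was tested when well above background on at least 3 of 6 arrays (19590 probes, 14853 genes), with the brightest tested probe standing for a gene. Accessions were matched without versions to RefSeq (assembly GRCm38.p6), which named 64.8% of probes. The array design is annotated on mm9, so no gene coordinates are given, and the promoter windows are RefSeq's own. Of 11 genes of the list with more than 1 tested probe, 6 had probes of differing sign. Stard4 is given above. For the others the probe used and then the dimmer probes gave 0.17 and -0.12 for Cyp51, and -0.0094, 0.14 and 0.19 for Nsdhl. Hsd17b7 gave -0.22 and 0.099, Dhcr7 -0.029 and 0.06, and Insig2 0.011 and -0.18.

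Tests used limma 3.58.1 in R 4.3.3 (lmFit and eBayes, two-sided, Benjamini-Hochberg over all genes, threshold 0.05), and the script was tested on simulated data. The comparison set 3 rHuEPO arrays against 3 controls, and a fit with 3 groups gave the PBS contrasts. The interaction with slide was added after seeing the data. Normexp, planned on mean signals, ran on median signals because the files carry no mean column. The genes described in full are those with the smallest p in each role, with others added after their values were seen. A gene that this rule named among the further pathway lists is not reported here. The 36 genes, the lists and the tests were chosen with earlier results of these data known. Whether replicate numbers pair samples is not known, and the main fit did not pair them. Deviations from group means correlated at -0.0714 and -0.160 for PBS and rHuEPO arrays sharing number 1 and number 2. With 2 PBS arrays these deviations mirror each other (0.0714 and 0.160 with the numbers crossed), so they cannot decide it.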

Additional observations from a re-analysis of the deposited data

How the results depend on the processing

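None of the 36 genes passed in any of the 18 alternatives that give rHuEPO against control, or in any run for the PBS and untreated contrasts, and the smallest adjusted p of any of the 36 for rHuEPO against control was 0.176. The count of all genes called was 10, and became 1 with normexp, without a filter on dim probes and with the replicate block, 3 with PBS alone as control, 5 with probes well above background on all 6 arrays, 27 with array weights, and 1 to 6 with an array left out. The median change of the 36 was 0.23 with normexp, against 0.070 over all genes, and the cause was not tested. In the other fits over both slides it lay between -0.081 and 0.11, and it was 0.15 within slide 1 and -0.091 within slide 2, values added after seeing the data. Genes with separated arms numbered 3 in the main fit. They numbered 4 with normexp (3 upward and 1 downward) and 4 with the mean of all probes (all upward). With PBS alone as control, where fewer arrays are set apart, they numbered 5, and with an array left out 3 to 9. The sign of a gene's change differed from that reported in 97 of 648 combinations of gene and alternative. Of these 14 were with normexp, 13 without PBS replicate 1 and 9 with the replicate block. It never differed for Sqle, Nr1h3, Tm7sf2, Hsd17b7, Abcg1 and Fasn, though a dimmer tested probe of Hsd17b7 gave 0.099 against -0.22. None of the changes that turned sign passed in either setting, and the causes were not tested. The total of 648 overstates stability. Other filters on dim probes, another limma prior or slide as a block leave each change as it was, so could turn no sign. The deposited table holds the same values recentred. PBS alone as control and leaving out the untreated array are the same fit, counted under both names.

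With normexp the changes of other sign were 0.15 for Hmgcs1, 0.43 for Pmvk, -0.24 for Lss, -0.26 for Cyp51, 0.44 for Msmo1, 0.37 for Dhcr7, 0.43 for Srebf1, -0.36 for Insig1, 0.18 for Stard4, 0.24 for Npc2, 0.39 for Nr1h2, 0.097 for Mylip, 0.23 for Scd2 and -0.11 for Acaca. With PBS arrays alone as control they were -0.013 for Mvd, -0.36 for Idi1, -0.14 for Fdps, -0.018 for Cyp51, -0.17 for Ebp, -0.15 for Sc5d, -0.05 for Scap and 0.093 for Npc1. With the replicate block they were -0.22 for Idi1, -0.017 for Fdps, 0.06 for Nsdhl, -0.13 for Ebp, -0.11 for Scap, -0.018 for Insig2, 0.13 for Npc1, -0.052 for Abca1 and 0.0092 for Acly. With array weights they were 0.083 for Hmgcs1, 0.00065 for Msmo1, -0.081 for Srebf2, 0.11 for Stard4, 0.08 for Npc2, -0.038 for Abca1 and -0.11 for Scd1. Median scaling gave 0.012 for Hmgcs1, 0.051 for Pmvk, 0.0084 for Msmo1, 0.064 for Nsdhl, 0.044 for Dhcr7 and 5.4e-05 for Srebf1. Quantile normalization gave 0.04 for Nsdhl, -0.0062 for Srebf2, -0.04 for Scap and -0.0089 for Insig2, and the mean of all probes gave 0.11 for Nsdhl, 0.015 for Dhcr7, -0.085 for Insig2 and 0.21 for Stard4. With an array left out, changes whose sign differed in at least 1 such fit ran from -0.39 to 0.023 for Acat2, from -0.23 to 0.22 for Hmgcs1, from -0.4 to 0.037 for Mvk, from -0.19 to 0.14 for Pmvk, from -0.13 to 0.55 for Mvd, from -0.36 to 0.39 for Idi1, from -0.14 to 0.62 for Fdps and from -0.14 to 0.29 for Fdft1. They ran from -0.018 to 0.28 for Cyp51, from -0.3 to 0.18 for Msmo1, from -0.093 to 0.052 for Nsdhl, from -0.17 to 0.26 for Ebp, from -0.15 to 0.22 for Sc5d, from -0.26 to 0.13 for Dhcr7, from -0.13 to 0.022 for Srebf1 and from -0.12 to 0.095 for Srebf2. The rest ran from -0.073 to 0.16 for Scap, from -0.036 to 0.052 for Insig2, from -0.54 to 0.38 for Stard4, from -0.39 to 0.093 for Npc1, from -0.3 to 0.2 for Npc2, from -0.16 to 0.0039 for Nr1h2, from -0.2 to 0.16 for Abca1 and from -0.49 to 0.77 for Scd1. Replicate numbers as a block changed no call among the 36. All 36 genes were well above background on every array, though normexp still turned 14 signs, and what limits the calls was not tested.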
